A study of Homo sapiens with 6 samples.

Results

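Polyamines are small, positively charged amines that bind nucleic acids and that dividing cells need in large amounts. The genes described are the 10 named members of polyamine synthesis and control: ODC1, AMD1, SRM, SMS, SAT1, OAZ1, OAZ2, AZIN1, PAOX and SMOX. They were chosen by name, and all 10 were found among the 16197 genes of the deposited expression table. RNA was sequenced from Panc1, an established human pancreatic carcinoma line, after exposure to BRQ (3 libraries) or to the solvent DMSO (3 libraries). The title speaks of inhibiting DHODH, an enzyme of pyrimidine synthesis, and the label BRQ is taken to mean brequinar, which blocks that enzyme. Both groups were the same line. Dose, exposure time and whether libraries came from separate cultures are not stated in the sources used here, so the p-values reflect no more than library-to-library spread, and that spread may be technical. In bulk RNA a change in the share of cells and a change in RNA per cell cannot be told apart.

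Synthesis starts with ornithine decarboxylase (ODC1), which makes putrescine. AMD1 decarboxylates S-adenosylmethionine to give the aminopropyl donor, with which SRM turns putrescine into spermidine and SMS turns spermidine into spermine. The antizymes OAZ1 and OAZ2 bind ornithine decarboxylase and steer it to the proteasome, and they also restrain polyamine uptake. AZIN1 is a relative of ornithine decarboxylase without its activity that binds antizyme and so frees the enzyme. SAT1 acetylates spermidine and spermine, PAOX oxidises the acetylated forms in peroxisomes, and SMOX oxidises spermine directly.

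Values are FPKM (fragments per gene, scaled to gene length and library total), with means ± SD over 3 libraries. Each log2 fold change compares BRQ with DMSO after adding 1 to FPKM and carries its SE, and adjusted p-values are from limma over the 10689 genes whose mean reached 1 FPKM. The low values gave relative depths of 1.02 to 1.03 in BRQ libraries and 0.959 to 0.986 in DMSO libraries. With exon lengths from GENCODE 29 they gave a rough depth of 3.04e+07 fragments, or 211 to 432 fragments of PAOX and at least 1741 of each other member in a library. The 6 epithelial markers, all in the table, summed to 2267 to 2406 FPKM in BRQ and 2396 to 2521 FPKM in DMSO. Of these, the duct keratin KRT7 stayed at or under 1.39 FPKM in all 6 libraries. The epithelial markers did not move together: at an adjusted p under 0.05, MUC1 and EPCAM were higher in BRQ and KRT18 and KRT19 lower. KRT7 and KRT8 did not pass. MUC1 averaged 62.7 ± 3.94 FPKM in BRQ and 35.2 ± 1.89 FPKM in DMSO, and KRT19 averaged 567 ± 7.45 FPKM in BRQ and 718 ± 23.97 FPKM in DMSO. Of 5 acinar markers 2 were in the table, with a summed level of at most 0.213 FPKM in BRQ and 0.124 FPKM in DMSO. Of 6 erythroid markers 5 were in the table, with a summed level of 1.85 to 88.8 FPKM over the 3 BRQ libraries and 0.592 to 2.11 FPKM in DMSO. Haemoglobin transcripts set BRQ libraries 1 and 2 apart, with HBB at 64.2 and 32.8 FPKM, against at most 0.677 FPKM in DMSO. The 5 leukocyte markers summed to 1.35 to 2.56 FPKM in BRQ and 2.23 to 3.37 FPKM in DMSO. The 5 fibroblast markers summed to 77.5 to 83.1 FPKM in BRQ and 52.1 to 55.2 FPKM in DMSO, nearly all of it LUM, while DCN and PDGFRA stayed under 0.1 FPKM. The part of these differences in the results below was not tested, but each member is also given for BRQ library 3, where HBB was at 0.739 FPKM.

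Of the 10 polyamine genes, 6 were higher in BRQ (ODC1, SRM, OAZ1, OAZ2, SAT1 and PAOX), 3 were lower (SMS, AZIN1 and SMOX) and AMD1 did not pass an adjusted p of 0.05. Over all tested genes 62.1% passed that threshold, 36.9% as higher and 25.2% as lower, so passing it says little about a gene by itself. The excess of higher genes depended on scaling: 3946 were higher and 2692 lower as deposited, 3390 and 3217 with median-of-ratios, 3484 and 3283 with TPM, and 3345 and 3278 with trimmed-mean scaling. The calls of the 10 members were the same in all 4. The median log2 fold change was 0.26 over the 10 members and 0.06 over all tested genes, and the median absolute change was 0.28 and 0.24. In 9 of the 10 genes the BRQ and DMSO libraries did not overlap, against 67.2% of all tested genes. Most changes were under 1.5-fold in group means, and the sole exception was ODC1. Members of 1 role did not all move together: within synthesis 2 were higher and 1 lower, and within breakdown 2 were higher and 1 lower.

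**Figure D1:**
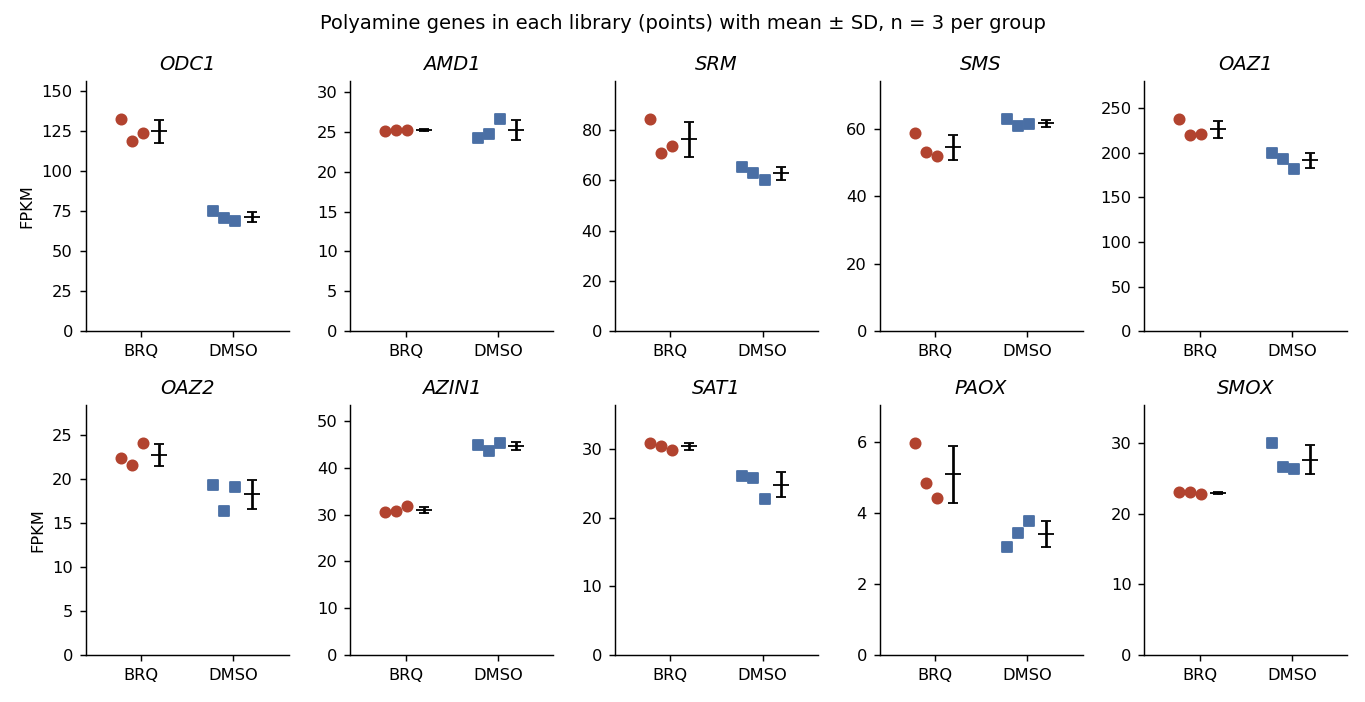
FPKM of each polyamine gene in the 3 BRQ libraries (circles) and the 3 DMSO libraries (squares), with the mean and SD of each group as a bar. The groups overlap in AMD1 and lie apart in the other 9 genes, with the widest gap in ODC1.

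Ornithine decarboxylase had the largest change of the 10. ODC1 was at 132, 118 and 123 FPKM in BRQ libraries 1, 2 and 3, against 74.7, 70.6 and 68.7 FPKM in DMSO libraries 1, 2 and 3. Every BRQ library was far above every DMSO library, with means of 125 ± 7.02 FPKM in BRQ and 71.3 ± 3.10 FPKM in DMSO, a rise of 74.6% (log2 fold change 0.79 ± 0.05, adjusted p = 4.73e-07). BRQ library 3 alone was 1.73 times the DMSO mean. An absolute change at least this large was seen in 4.91% of all tested genes, and 210 of these genes moved by 2-fold or more and passed the threshold. The transcription factor MYC, for which ODC1 is a textbook target, went the other way, with 44.9 ± 1.81 FPKM in BRQ and 77.9 ± 2.81 FPKM in DMSO (adjusted p = 3.19e-07).

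ODC1 lies on chromosome 2 from 10439968 to 10448504 on the minus strand (GRCh38), and SRM on chromosome 1 from 11054584 to 11060024 on the minus strand. The E-box CACGTG, the letters that MYC and its partner MAX bind, was sought in RefSeq promoter windows (250 bases before to 50 after a start, GRCh38.p14). Windows of 7 members were searched, 10 in all, since AMD1 has 3 and ODC1 has 2. Of the AMD1 windows, 2 are almost the same stretch. AZIN1 was left out of the search, and no window was given for PAOX or SMOX. Of the members that fell, SMS alone was therefore searched, so the search cannot set members that rose against members that fell. CACGTG was found in 2 of the 10 windows, 1 of ODC1 and that of SRM. No window of the other 5 members searched (AMD1, SMS, OAZ1, OAZ2 and SAT1) held it, while 7.26% of all 35116 windows hold it. The stretches around these matches are shown because both genes rose while MYC fell. The letters CACGTG read the same on both strands and are in capitals below. The ODC1 stretch is chr2:10447983-10448120, in the first intron of the longer transcript, and takes in the first 30 bases of a shorter RefSeq transcript. The SRM stretch is chr1:11060025-11060268, upstream of the start in GENCODE 29.
ODC1: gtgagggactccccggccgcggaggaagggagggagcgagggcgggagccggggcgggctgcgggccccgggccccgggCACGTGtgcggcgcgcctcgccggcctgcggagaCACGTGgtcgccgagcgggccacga
SRM: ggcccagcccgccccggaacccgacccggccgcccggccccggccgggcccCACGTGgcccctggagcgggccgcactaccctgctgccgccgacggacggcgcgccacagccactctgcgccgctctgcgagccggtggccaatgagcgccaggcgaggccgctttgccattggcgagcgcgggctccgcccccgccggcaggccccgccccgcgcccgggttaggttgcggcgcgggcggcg
The ODC1 stretch holds 2 copies, whose first bases lie 29 bases before and 5 bases after the shorter transcript's start, and the SRM stretch holds 1 copy that begins 193 bases before the start. A match in these letters is a description and does not show that MYC binds there in these cells. The same windows were searched on both strands for CCAAT, found in 5 of the 10 windows and in 34.6% of all windows, and for the GC box GGGCGG, found in 9 of the 10 windows and in 45% of all windows.

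The later enzymes of synthesis changed less and not in 1 direction. AMD1 was at 25.1, 25.3 and 25.3 FPKM in BRQ, against 24.2, 24.8 and 26.6 FPKM in DMSO. The groups overlapped, and AMD1 was not called (log2 fold change 0.00 ± 0.05, 95% interval -0.11 to 0.11, adjusted p = 0.960; its sign turned negative under 6 of 17 alternatives, and it passed in none). AMD1 lies on chromosome 6 from 110874770 to 110895713 on the plus strand. GENCODE 29 names 5 pseudogenes after it and 2 after SRM, and how reads shared with them were counted is not stated. The spermidine synthase gene SRM was at 84.3, 71.03 and 73.5 FPKM in BRQ, against 65.3, 63.1 and 60.003 FPKM in DMSO. All 3 BRQ values were higher, with BRQ library 1 well above the other 2, and the mean rose by 21.4% (log2 fold change 0.27 ± 0.06, adjusted p = 0.00298).

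The spermine synthase gene SMS was at 58.8, 53.2 and 51.9 FPKM in BRQ, against 62.9, 60.8 and 61.5 FPKM in DMSO. All 3 BRQ values were lower, and the mean fell by 11.5% (log2 fold change -0.18 ± 0.05, adjusted p = 0.0115). Without BRQ replicate 3, the lowest of the 3, the log2 fold change of SMS was -0.14 and no longer passed (adjusted p = 0.0507). The 4 synthesis enzymes together summed to 300.4, 268 and 274 FPKM in BRQ, against 227, 219 and 217 FPKM in DMSO, a difference that came mostly from ODC1. SMS lies on the X chromosome from 21940573 to 21994835 on the plus strand.

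**Figure D2:**
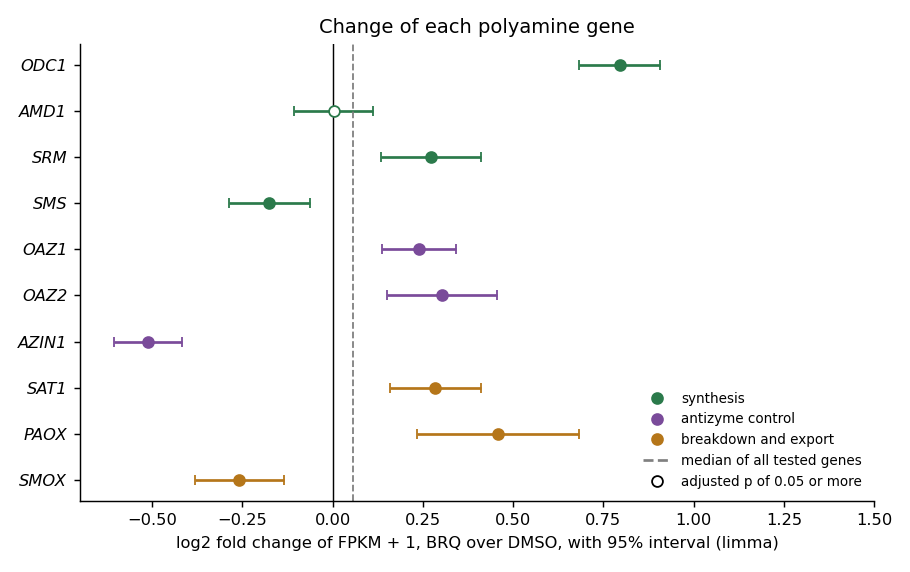
Log2 fold change of FPKM + 1, BRQ over DMSO, with its 95% interval from limma, for the 10 genes coloured by role. The dashed line is the median of all tested genes (0.06). ODC1 (0.79) lies farthest to the right, AZIN1 (-0.51) farthest to the left, and AMD1 (open point) is centred on 0.

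In the control arm the antizyme genes were higher and the antizyme inhibitor gene was lower. OAZ1 was at 238, 220.2 and 221 FPKM in BRQ, against 199.6, 193 and 182 FPKM in DMSO, the highest level of the 10 genes in every library. The groups did not overlap, and the mean rose by 18.1% (log2 fold change 0.24 ± 0.05, adjusted p = 0.00110). OAZ2 had a far lower level, at 22.3, 21.6 and 24.1 FPKM in BRQ, against 19.2, 16.3 and 19.1 FPKM in DMSO. It was higher in all 3 BRQ libraries and rose by 24.4% (log2 fold change 0.30 ± 0.07, adjusted p = 0.00297).

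AZIN1 was at 30.6, 30.7 and 31.8 FPKM in BRQ, against 44.9, 43.7 and 45.3 FPKM in DMSO. Both groups were tight and far apart, and the mean fell by 30.5% (log2 fold change -0.51 ± 0.04, adjusted p = 2.78e-06), the clearest decrease of the 10. Among all tested genes this log2 fold change stood at percentile 5.87, while that of ODC1 stood at percentile 96.5. In BRQ library 3 alone, AZIN1 was at 0.712 times the DMSO mean and OAZ1 at 1.15 times. OAZ1 lies on chromosome 19 from 2269509 to 2273490 on the plus strand and OAZ2 on chromosome 15 from 64687573 to 64703281 on the minus strand. The strand of the reads is not stated, and 236 bases of OAZ1 exon overlap JSRP1 on the opposite strand, whose own listed level was at most 0.277 FPKM in BRQ and 0.0389 FPKM in DMSO. AZIN1 and OAZ2 share 344 and 554 exon bases with antisense genes, and OAZ1 and PAOX share 220 and 158 with other genes on their own strand, none of which has a row in the table.

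Antizyme protein is made only when the ribosome shifts frame within the coding sequence, a step that polyamines promote, so antizyme RNA is not a measure of antizyme protein. The shift sites are shown because both antizyme genes rose together. They lie at chr19:2271416-2271470 on the plus strand in OAZ1 and at chr15:64691488-64691542 on the minus strand in OAZ2 (GRCh38, GENCODE 29). Capitals mark the last codon read in the first frame, the stop codon TGA and the next base, and GENCODE leaves out the T of that stop codon from the coding transcripts to show the shift.
OAZ1: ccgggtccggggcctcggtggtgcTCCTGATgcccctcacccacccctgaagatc
OAZ2: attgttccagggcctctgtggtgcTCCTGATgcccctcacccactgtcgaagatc
Over these 55 bases the genes are identical at 45, or 81.8%. FPKM counts all reads of a gene alike, so the values say nothing about how often the shift took place.

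Ratios within a library do not depend on how that library was scaled, and 6 were computed. The ratio of ODC1 to OAZ1 was 0.556, 0.537 and 0.558 in BRQ, against 0.375, 0.366 and 0.377 in DMSO, so ODC1 RNA rose by more than the RNA of its inhibitor. The ratio of AZIN1 to OAZ1 was 0.129, 0.139 and 0.144 in BRQ, against 0.225, 0.227 and 0.249 in DMSO. The ratio of OAZ1 to OAZ2 overlapped between groups, with 10.01 ± 0.744 in BRQ and 10.6 ± 1.15 in DMSO. That of SRM to SMS was 1.39 ± 0.0518 in BRQ and 1.02 ± 0.0358 in DMSO, and that of AMD1 to SRM was 0.333 ± 0.0306 in BRQ and 0.402 ± 0.0374 in DMSO. The ratio of SAT1 to ODC1 was 0.244 ± 0.0119 in BRQ and 0.348 ± 0.0170 in DMSO. In 5 of the 6 ratios the groups did not overlap, and the exact two-sided permutation p was 0.1, the smallest that 3 against 3 libraries allow (0.12 after Benjamini-Hochberg adjustment over the 6). For OAZ1 to OAZ2 the exact permutation p was 0.5.

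**Figure D3:**
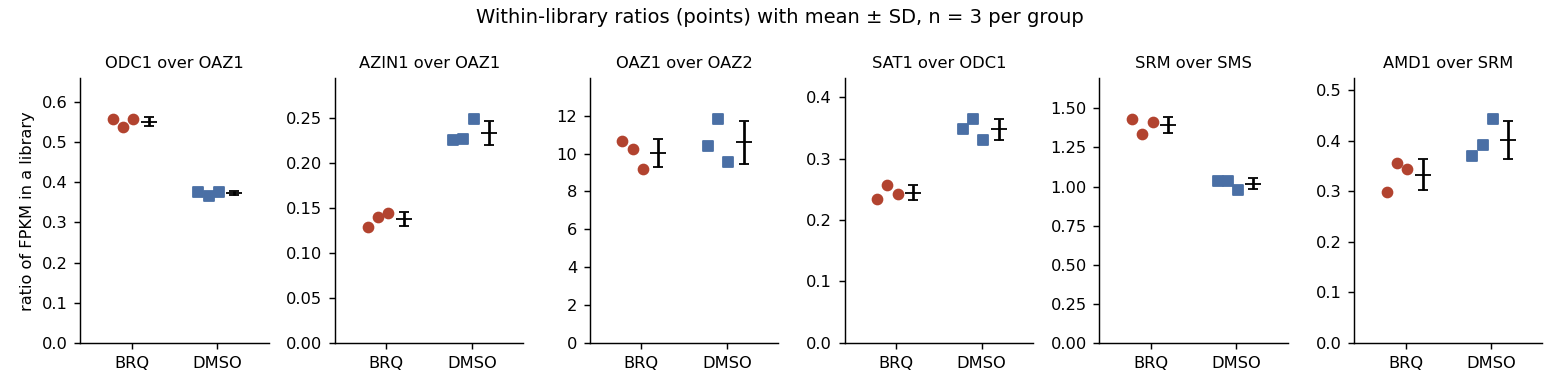
Ratio of FPKM between pairs of polyamine genes in each BRQ library (circles) and each DMSO library (squares), with the mean and SD of each group as a bar. The groups lie apart in every pair but OAZ1 over OAZ2, and the ratio of AZIN1 to OAZ1 averages 0.137 in BRQ and 0.233 in DMSO.

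Among the genes of breakdown, SAT1 and PAOX were higher and SMOX was lower. SAT1 was at 30.9, 30.4 and 29.9 FPKM in BRQ, against 26.05, 25.8 and 22.7 FPKM in DMSO. The groups did not overlap, and the mean rose by 22.4% (log2 fold change 0.28 ± 0.06, adjusted p = 0.00131). PAOX, the lowest of the 10 genes, was at 5.99, 4.87 and 4.44 FPKM in BRQ, against 3.05, 3.43 and 3.79 FPKM in DMSO, a rise of 48.9% (log2 fold change 0.46 ± 0.10, adjusted p = 0.00246). Its BRQ values spread widely, library 1 lay highest, and with BRQ library 3 as the sole BRQ library the log2 fold change was 0.30 and did not pass (adjusted p = 0.0657).

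SMOX was at 23.01, 23.02 and 22.7 FPKM in BRQ, against 30.04, 26.7 and 26.3 FPKM in DMSO. The BRQ values were nearly level and all below DMSO, where library 1 was highest, and the mean fell by 17.1% (log2 fold change -0.26 ± 0.06, adjusted p = 0.00222). SAT1 lies on the X chromosome from 23783173 to 23786226, PAOX on chromosome 10 from 133379234 to 133391694 and SMOX on chromosome 20 from 4120980 to 4187747, all on the plus strand. The oxidases that act on acetylated polyamines and on spermine thus differed in direction.

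FPKM is scaled to gene length, so levels can be set side by side between genes, but only roughly, since the gene lengths used are not stated. The order of levels was much the same in both groups. In BRQ it ran OAZ1, ODC1, SRM, SMS, AZIN1, SAT1, AMD1, SMOX, OAZ2 and PAOX, and the values of AZIN1 and SAT1 overlapped, as did those of SMOX and OAZ2. In DMSO the order was OAZ1, ODC1, SRM, SMS, AZIN1, SMOX, AMD1, SAT1, OAZ2 and PAOX. There SRM and SMS overlapped, as did AMD1 with both SMOX and SAT1. SRM and SMS, at 62.8 ± 2.68 and 61.7 ± 1.08 FPKM in DMSO, were at 76.3 ± 7.07 and 54.6 ± 3.68 FPKM in BRQ.

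The members differ in genomic span, the distance from the start to the end of the gene. The 3 that fell are the longest, SMS with 54.3 kb, SMOX with 66.8 kb and AZIN1 with 67.5 kb, and the 6 that rose span 3.05 kb (SAT1) to 15.7 kb (OAZ2). AMD1, whose change did not pass, lies between them with 20.9 kb, counted from a start at 110874770. A RefSeq promoter window of AMD1 lies far upstream of that start, at 110814367 to 110814666. With a start there, AMD1 would be longer than AZIN1. The order of the members by span, and rho over the 10 members, thus rest on the annotation chosen. Over all genes, too, longer genes were more often lower. Of 4688 tested genes under 25 kb, 48.8% were higher and 17.2% lower, and of 3650 genes over 50 kb, 19.4% were higher and 39.2% lower. Spearman's rho between span and log2 fold change was -0.33 over 10681 tested genes and -0.66 over the 10 members, a description only, since genes of the same libraries are not independent. When each library's trend with span was removed, the 9 calls remained, with log2 fold changes of 0.69 for ODC1 (adjusted p = 6.50e-07), -0.46 for AZIN1 (adjusted p = 5.09e-06), 0.11 for OAZ1 (0.0224), 0.15 for SAT1 (0.0291) and 0.15 for SRM (0.0286). The changes of OAZ1, SAT1 and SRM were then smaller by more than 1.5 times.

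**Figure D4:**
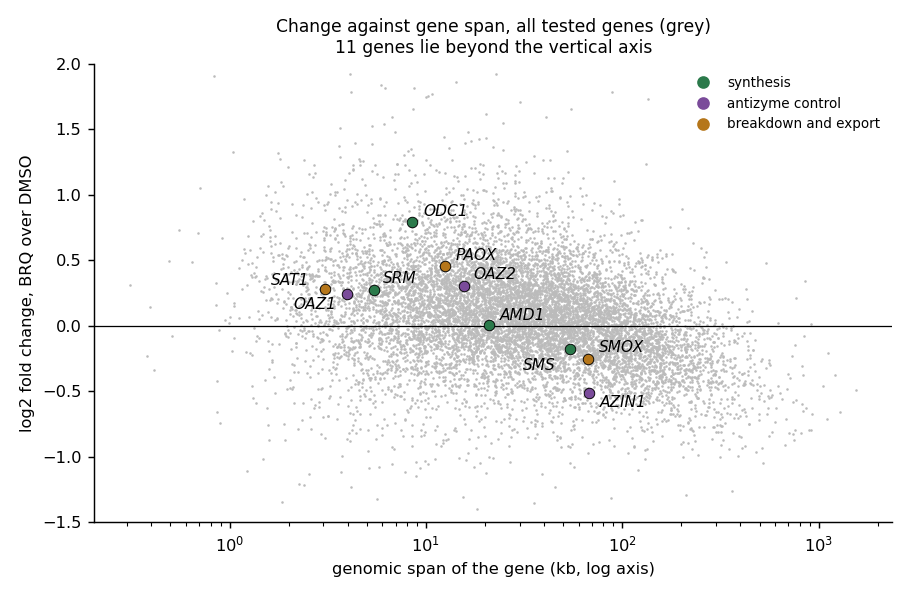
Log2 fold change, BRQ over DMSO, against the genomic span of the gene in kb on a log axis, for all tested genes with a position (grey points, 11 beyond the vertical axis) and the 10 polyamine genes coloured by role. SMS, SMOX and AZIN1, each over 50 kb, lie below 0, and the 6 genes that rose lie at the left, above 0.

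By a fixed measure of likeness, the Euclidean distance between centred log2(FPKM + 1) values over the 6 libraries, the genes closest to ODC1 among 7588 protein-coding genes of at least 5 FPKM were PPIF, SFN and PTMS. PPIF, the mitochondrial cyclophilin, was at 89.5, 81.5 and 84.9 FPKM in BRQ and 49.2, 48.3 and 47.9 FPKM in DMSO (distance 0.0625). SFN, the 14-3-3 protein sigma, was at 404, 378 and 389 FPKM in BRQ and 229, 226 and 216 FPKM in DMSO (distance 0.0639). PTMS, parathymosin, was at 476, 406 and 432 FPKM in BRQ and 271, 248 and 242 FPKM in DMSO (distance 0.0641). Like ODC1, each was highest in library 1 of both groups, a likeness that the choice by these same values favours.

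Around the 10 members, 48 further genes were listed by role, of which 44 were in the table and 35 were tested, and of these 16 were higher, 7 were lower and 12 did not pass (median log2 fold change 0.12). Over all tested genes 36.9% were higher and 25.2% lower, with a median of 0.06. The counts of each list below are to be read beside these shares, and by themselves they say little about the pathway. Below, a gene is said to have risen or fallen where its adjusted p passed 0.05. Of 14 genes of ornithine, arginine and proline supply 9 were tested, 5 were higher and none was lower, with a median log2 fold change of 0.46. OAT, which converts ornithine to and from glutamate semialdehyde, was at 17.8, 16.5 and 17.6 FPKM in BRQ, against 9.42, 10.7 and 9.75 FPKM in DMSO (log2 fold change 0.74 ± 0.06, adjusted p = 2.74e-06). The mitochondrial ornithine carrier SLC25A15 averaged 10.9 ± 0.412 FPKM in BRQ and 6.66 ± 0.538 FPKM in DMSO (adjusted p = 1.75e-05). The mitochondrial arginase ARG2, which makes ornithine from arginine, also rose, at 2.46 ± 0.573 FPKM in BRQ and 1.49 ± 0.0889 FPKM in DMSO. ARG1 was listed at 0 in all 3 BRQ libraries and at no more than 0.104 FPKM in DMSO, and ALDH18A1 and PYCR1 did not pass (adjusted p = 0.665 and 0.309).

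**Figure D5:**
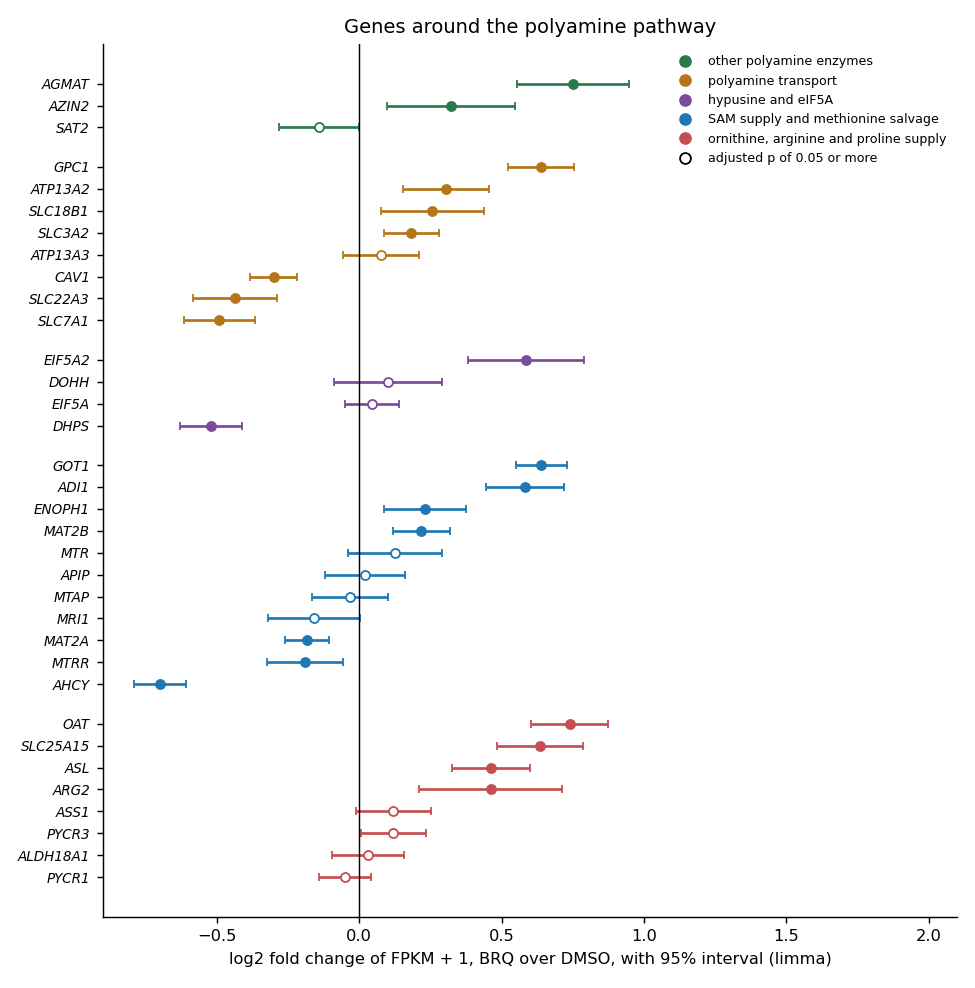
Log2 fold change of FPKM + 1, BRQ over DMSO, with its 95% interval from limma, for tested genes around the polyamine pathway, all but 1 of the 35, grouped by role and ordered by change within each group. Open points did not pass. Of the ornithine, arginine and proline genes drawn, those that pass all lie on the right, led by OAT (0.74). The other groups, with the exception of other polyamine enzymes, have passing genes on both sides.

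The supply of S-adenosylmethionine, the other substrate, moved both ways, with 4 of 11 tested genes higher and 3 lower (12 listed, median log2 fold change 0.02). AHCY, which clears S-adenosylhomocysteine, was at 41.2, 40.2 and 39.04 FPKM in BRQ, against 64.6, 66.6 and 65.97 FPKM in DMSO (log2 fold change -0.70 ± 0.04, adjusted p = 3.24e-07). MAT2A, which makes S-adenosylmethionine, averaged 184 ± 2.59 FPKM in BRQ and 209 ± 2.03 FPKM in DMSO (log2 fold change -0.18, adjusted p = 0.00106, and -0.30 with the trend with span removed). In the salvage of methylthioadenosine, the by-product of spermidine and spermine synthesis, ADI1 rose, with 33.5 ± 1.86 FPKM in BRQ and 22.1 ± 1.61 FPKM in DMSO. GOT1, counted here for its transaminase step in that salvage, rose as well, with 56.6 ± 0.859 and 35.99 ± 0.666 FPKM. MTAP, the first enzyme of the salvage, did not pass, with 9.56 ± 0.189 FPKM in BRQ and 9.80 ± 0.551 FPKM in DMSO (adjusted p = 0.662).

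Spermidine is also the donor for hypusine, the modified lysine of the translation factor eIF5A. Of the 4 genes of this step, all tested (median log2 fold change 0.07), DHPS, which transfers the aminobutyl group, fell, at 19.04, 19.98 and 19.9 FPKM in BRQ against 27.6, 29.8 and 28.4 FPKM in DMSO (log2 fold change -0.52 ± 0.05, adjusted p = 6.76e-06). EIF5A, the main carrier of hypusine, averaged 122 ± 5.19 FPKM in BRQ and 118 ± 2.99 FPKM in DMSO and did not pass (log2 fold change 0.04 ± 0.04, adjusted p = 0.388, with the sign turned under 5 of 17 alternatives). Its paralog EIF5A2 rose at a low level, 2.94 ± 0.0889 FPKM in BRQ and 1.64 ± 0.279 FPKM in DMSO, and DOHH, which completes hypusine, did not pass (adjusted p = 0.328).

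Of 13 transport genes 8 were tested, 4 were higher and 3 lower (median log2 fold change 0.13). GPC1, a heparan sulphate proteoglycan linked to polyamine uptake, rose to 17.02 ± 0.568 FPKM in BRQ, against 10.6 ± 0.128 FPKM in DMSO. ATP13A2, the lysosomal polyamine exporter, was at 19.99 ± 1.55 FPKM in BRQ and 15.98 ± 1.10 FPKM in DMSO (adjusted p = 0.00258). SLC7A1, the carrier of cationic amino acids such as arginine and ornithine, fell to 24.4 ± 1.58 FPKM in BRQ, against 34.6 ± 1.26 FPKM in DMSO, and the organic cation transporter SLC22A3 to 4.01 ± 0.110 FPKM, against 5.78 ± 0.239 FPKM. GPC1, SLC7A1 and SLC22A3 each had a lower adjusted p than ATP13A2.

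Of 5 further enzymes and regulators 3 were tested, 2 were higher and none was lower (median log2 fold change 0.32). AGMAT, annotated as an agmatinase that would make putrescine from agmatine, was at 4.81, 4.57 and 4.06 FPKM in BRQ, against 2.49, 2.33 and 1.95 FPKM in DMSO (log2 fold change 0.75 ± 0.09, adjusted p = 3.36e-05). The other was AZIN2, a second antizyme inhibitor, at 2.53 ± 0.185 FPKM in BRQ and 1.83 ± 0.362 FPKM in DMSO (adjusted p = 0.0174), so the antizyme inhibitor genes differed in direction. SAT2 did not pass (adjusted p = 0.0759). In the table's own gene ontology terms, 13 genes other than the 10 members carry a term naming a polyamine, and of 12 tested 8 were higher and 2 lower (median log2 fold change 0.38). Over all tested genes 36.9% were higher and 25.2% lower. The 12 are no separate set, since DHPS, AGMAT, EIF5A2, ATP13A2, AZIN2 and SAT2 were already counted in the lists above. Of the 12, the largest change was in AOC1, the diamine oxidase that degrades putrescine, at 6.14, 5.49 and 5.04 FPKM in BRQ, against 2.56, 2.33 and 2.92 FPKM in DMSO (log2 fold change 0.86 ± 0.09, adjusted p = 1.27e-05).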

How the data were processed

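RNA from 6 libraries, 3 BRQ and 3 DMSO, was grouped by the sample titles. The authors deposited FPKM per gene and library. Per the submitters' processing notes, fastp (a read trimmer), HTSeq (a read counter) and build hg38 were used. The sources used here do not name the aligner, annotation, gene lengths or strand. FPKM is relative, so a rise in abundant genes lowers others. The values hold no counts, and no count model was used.

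The limma package 3.58.1 (R 4.3.3) was fitted to log2(FPKM + 1) of every gene averaging 1 FPKM or more. Moderated variances followed the trend with mean level, tests were two-sided, treatment was the sole term and p-values were adjusted by Benjamini-Hochberg over all tested genes. The test was checked on simulated data in which far fewer genes changed, and by more than most members did. That check therefore does not cover changes as small or as widespread as those seen here. Positions and exon lengths came from GENCODE 29 (GRCh38), promoter sequences from RefSeq. Figures were drawn with matplotlib 3.10.9.

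The members, lists and tests were chosen with earlier results of these data known. The rule for named genes took the 10 members, up to 3 genes past the threshold of each wider list whose higher group averaged 5 FPKM or more, MAT2A, EIF5A, MYC and the 3 genes most like ODC1. Of the genes it takes, 1 is not reported here. ATP13A2, ARG2, ARG1, ALDH18A1, PYCR1, MTAP, DOHH, EIF5A2, AGMAT, AZIN2, SAT2 and AOC1 are named besides, a choice made with their values in view, as were the limits of 25 and 50 kb. Alternatives were another pseudocount (0.1), no filter, a filter of 5 FPKM, rescaling by trimmed mean, by median of ratios and to TPM, robust variance estimates, a replicate block, removal of a trend with genomic span, a fit of protein-coding genes alone, and libraries left out. The ratios without BRQ libraries 1 and 2 were added after the data were seen.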

Additional observations from a re-analysis of the deposited data

How the results depend on the processing

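Over 17 alternatives, 5 to 6 of the 10 polyamine genes were called higher in BRQ and 2 to 3 lower. The exceptions to 6 and 3 were a filter of 5 FPKM, which left PAOX untested, SMS without BRQ replicate 3 (adjusted p = 0.0507) and PAOX with BRQ library 3 as the sole BRQ library (adjusted p = 0.0657), a fit that assumes this lone library varies as the DMSO libraries do. The log2 fold change of ODC1 ran from 0.69 to 0.83 and that of AZIN1 from -0.58 to -0.46, past the threshold each time. Genes around the pathway called higher numbered 11 to 20, and lower 6 to 10. AMD1, not called in any, had log2 fold changes of -0.053 with median-of-ratios, -0.054 with TPM and -0.059 with trimmed-mean scaling, -0.086 with the span trend removed, and -0.024 to 0.041 when each library was left out in turn (-0.024 and -0.0084 without DMSO replicates 1 and 2). EIF5A, also not called, had -0.0133, -0.0129 and -0.019 under these scalings, -0.076 with the span trend removed and -0.019 with BRQ library 3 as the sole BRQ library. For both, the cause was not tested. The log2 difference of the ratio of OAZ1 to OAZ2 (-0.08) ran from -0.15 to 0.0051 when each library was left out. With a replicate block, 4030 genes were higher and 2769 lower, against 3946 and 2692 without it, and the calls of the 10 genes were as before. Same-numbered libraries correlated at 0.144, 0.00804 and 0.0584 in their deviations from group means. BRQ libraries 1 and 3 correlated best with the DMSO library of the same number, but BRQ library 2 with DMSO library 3 (0.105). These values do not settle whether the numbers mark pairs, and the main fit did not take them as pairs. Depth could be estimated only roughly, and it limits PAOX most.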
